A study of Rattus norvegicus with 6 samples.

Results

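Wnt signalling genes were followed in the lungs of rats with bleomycin-induced pulmonary fibrosis (PF). Every gene name of the Wnt, Fzd (Frizzled), Sfrp and Dkk families was taken, together with Lrp5, Lrp6, Axin2, Rspo1, Rspo2, Rspo3, Lgr4, Lgr5, Lgr6, Wif1, Lef1, Tcf7 and Ctnnb1, which gave 46 genes of the 21655 gene names in the table. Wnt1, Wnt8a, Wnt10b and Dkk1 were not analysed here. The expression value of a gene was the sum of the FPKM (mapped fragments scaled to the length of the transcript and the size of the library) of all transcripts listed under its name.

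The 3 control samples came from Sprague–Dawley rats given saline into the trachea, and the 3 PF model samples from rats of the same strain given a single intratracheal dose of bleomycin at 7 mg/kg. The rats were 7 weeks old at the start, and whole lung tissue was taken on day 28. One library depleted of ribosomal RNA was sequenced per sample. The study raised 20 rats, the sources used here do not say whether a library held the RNA of 1 rat or of several, and p-values measure only the spread between these libraries. None of 6 fibrosis markers passed an unadjusted p of 0.05 between the groups, so these markers gave no check of the group labels, on which every comparison here rests. The study reported fibrous nodules in Masson-stained lung sections of the model group, and does not say whether the same lungs gave the libraries. In bulk tissue, fewer cells of a type and less RNA per cell cannot be told apart.

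Wnt proteins are secreted lipid-modified ligands that bind a Frizzled receptor and, in the β-catenin branch, a co-receptor, Lrp5 or Lrp6. Binding stops the destruction of β-catenin, the product of Ctnnb1, which then enters the nucleus and acts with Tcf7, Lef1 and related DNA-binding proteins on target genes such as Axin2. R-spondins strengthen the signal through Lgr receptors, while Sfrp and Wif1 proteins bind the ligands and most Dkk proteins block the co-receptors. In the lung the pathway is known for branching during development, for the upkeep of alveolar type 2 cells and for work on fibrosis.

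Axin2 is the classic transcriptional readout of the pathway. Wnt2 and Wnt3a are ligands with an unadjusted p of at most 0.05 (limma) between the groups below, and neither passed after adjustment. The 250 bases before the start of these 3 genes are shown. They are RefSeq sequences of the GRCr8 build, 5′ to 3′ on the strand of the gene, and capitals mark the letters of a TCF/LEF motif. The positions are chr10:94398535-94398784 on the plus strand for Axin2, chr4:47340285-47340534 on the minus strand for Wnt2 and chr10:44577920-44578169 on the minus strand for Wnt3a.
Axin2: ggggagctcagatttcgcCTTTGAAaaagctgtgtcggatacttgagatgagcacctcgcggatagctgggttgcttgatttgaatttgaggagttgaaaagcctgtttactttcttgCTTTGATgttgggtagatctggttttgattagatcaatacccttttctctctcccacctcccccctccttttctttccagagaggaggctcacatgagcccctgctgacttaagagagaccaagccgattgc
Wnt2: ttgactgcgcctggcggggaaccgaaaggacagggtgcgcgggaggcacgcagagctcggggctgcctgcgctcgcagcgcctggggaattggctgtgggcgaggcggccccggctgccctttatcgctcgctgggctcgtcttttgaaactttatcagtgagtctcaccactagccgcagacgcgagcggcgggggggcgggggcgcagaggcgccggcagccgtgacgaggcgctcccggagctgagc
Wnt3a: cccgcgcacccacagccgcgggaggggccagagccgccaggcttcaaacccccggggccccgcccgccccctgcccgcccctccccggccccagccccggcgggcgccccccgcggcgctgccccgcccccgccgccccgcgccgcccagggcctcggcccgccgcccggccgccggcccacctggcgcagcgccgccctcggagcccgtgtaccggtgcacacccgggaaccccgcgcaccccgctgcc

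The letters searched, on both strands, were CTTTGAA in one motif and CTTTGAT in another, and with T in place of the sixth letter the motif CTTTGTA as well as the motif CTTTGTT, and no pair of them can match at the same position. Axin2 held 2 matches, one to the motif CTTTGAA and one to the motif CTTTGAT, and the windows of Wnt2 and Wnt3a held none. Of the 46 genes, 32 had a promoter entry, and 2 of these, Axin2 and Sfrp5, held a match (6.25%). Over all 33360 promoters in the RefSeq table the share was 14.9%. A match is a description of letters and was not tested as a binding site.

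As the plot of levels by library shows, 31 of the 46 genes had a mean of at least 1 FPKM over the 6 samples, 9 reached at least 10 FPKM, and 8 stayed below 0.1 FPKM. The FPKM summed over all 46 genes lay between 377 and 388 in control samples and between 381 and 427 in PF model samples. For the ligands alone, this sum lay between 33.1 and 36.6 in control samples and between 35.8 and 41.2 in PF model samples, and for the Frizzled receptors between 87.7 and 89.0 and between 85.0 and 95.2. The ranges of the groups overlapped for all of these sums.

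**Figure D1:**
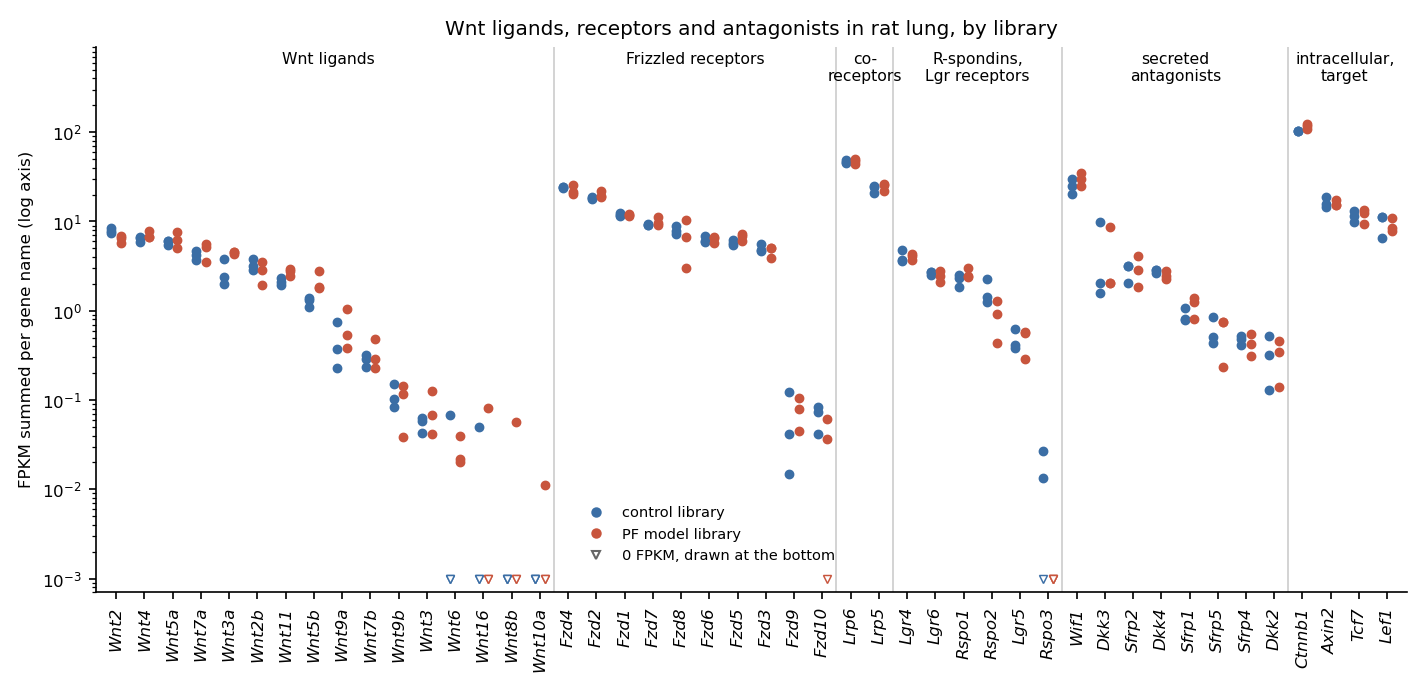
FPKM of each of the 46 genes, summed per gene name, in the 3 control libraries (blue) and the 3 PF model libraries (red) on a log axis, with genes ordered by mean level within their role and values of 0 drawn as open triangles at the bottom. Levels span from Ctnnb1 above 100 FPKM to Wnt10a, which was above 0 in 1 library, and in most genes the red and blue points overlap.

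Of the 46 genes, 42 were expressed above 0 FPKM in 3 or more of the 6 samples and were tested with limma on log2(FPKM + 1) beside all 19645 gene names that met this filter. A gene was called differentially expressed when its unadjusted p was at most 0.05 and the ratio of its group means was at least 2-fold in either direction. None of the 42 was called, against 1.52% of all gene names tested (0.662% higher and 0.855% lower in the PF model). At an unadjusted p of at most 0.05 alone, 3 genes passed: the ligands Wnt3a and Wnt5b were higher in PF model samples and the ligand Wnt2 was lower. That is 7.14% of the 42, near the 4.91% of all gene names (2.14% higher and 2.77% lower). No Benjamini-Hochberg adjusted p of the 42 was below 0.05, with a lowest value of 0.933, against 0.0102% of all gene names, which is 2 names.

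In 6 of the 42 genes the 3 control and the 3 PF model values did not overlap. Wnt3a, Wnt5b, Wnt11, Fzd2 and Ctnnb1 were higher in every PF model sample and Wnt2 was lower. This is 14.3% of the 42, against 10.7% of all gene names tested (4.82% higher and 5.87% lower). The median difference over the 42 genes was 0.01 on the log2(FPKM + 1) scale, with 26 genes above 0 and 16 below. Over all gene names tested it was -0.01, with 9339 above 0 and 10306 below. For 26 of the 31 genes with a mean of at least 1 FPKM, the 95% interval of the difference on the log2(FPKM + 0.1) scale lay within 2-fold in both directions. The other 5 were Wnt3a, Wnt5b, Fzd8, Rspo2 and Dkk3, for which these data do not exclude a 2-fold difference.

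**Figure D2:**
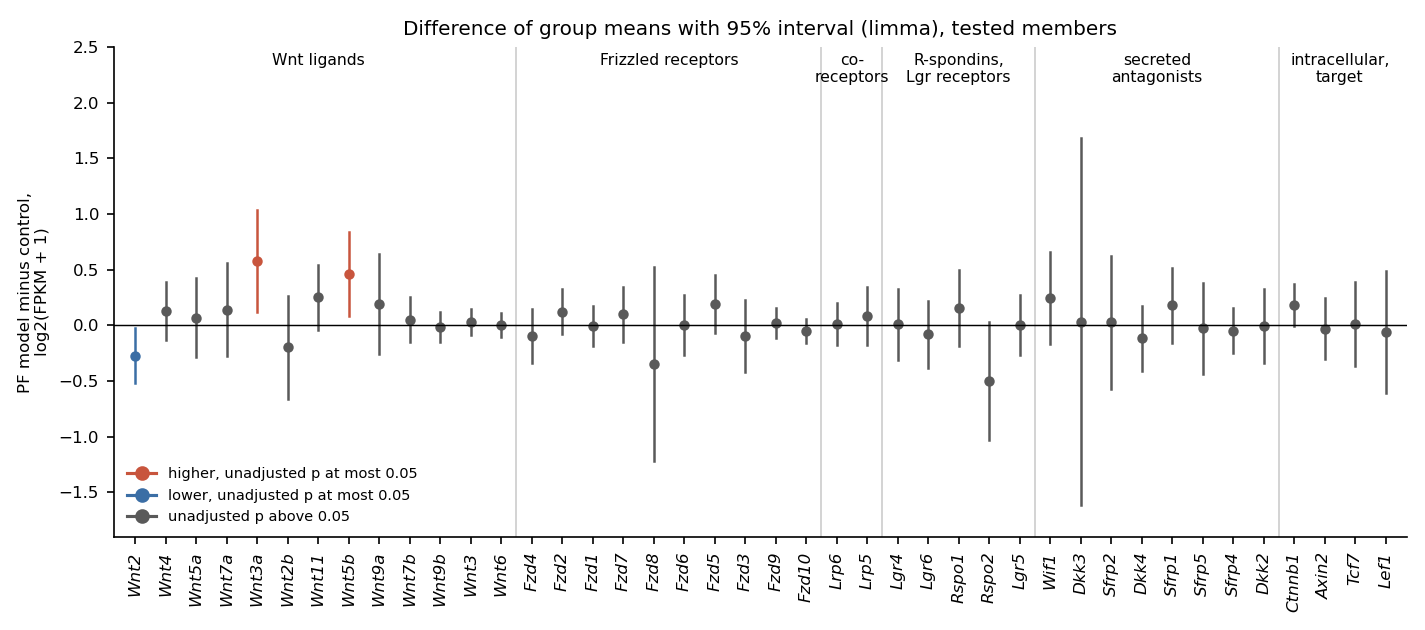
Difference of PF model and control group means on the log2(FPKM + 1) scale, with the 95% interval from limma, for the 42 tested genes in the order of their roles. The intervals of Wnt3a and Wnt5b lie above 0, that of Wnt2 lies below 0, and that of Dkk3 is the widest, from -1.62 to 1.68.

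Among the 16 ligands, Wnt2 had the highest mean (7.14 FPKM), followed by Wnt4 (6.72), Wnt5a (6.05), Wnt7a (4.47), Wnt3a (3.59), Wnt2b (3.02), Wnt11 (2.42) and Wnt5b (1.71). Each of these overlapped its neighbour in this order over the 6 samples. Wnt9a followed at 0.551 FPKM and did not overlap Wnt5b, and Wnt7b, Wnt9b and Wnt3 lay at 0.307, 0.106 and 0.0665 FPKM. Wnt6 was listed at 0 in 2 control samples and reached 0.0687 FPKM at most. Wnt16, Wnt8b and Wnt10a were not tested: Wnt16 was above 0 in control 3 (0.0493 FPKM) and PF model 2 (0.0821), Wnt8b in PF model 1 (0.0567) and Wnt10a in PF model 3 (0.0111). The order of the ligands is that of the sums and depends on what they include. Single-exon transcripts near the gene end held 34.4% of Wnt2 and 30.2% of Wnt4 but none of Wnt5a. The annotated Wnt2 transcript alone averaged 4.69 FPKM, below Wnt5a. In Wnt2b, 97.1% of the sum was single-exon transcripts that cover exon and intron.

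Wnt3a, a ligand of the β-catenin branch, measured 2.38, 3.78 and 2.01 FPKM in control samples 1 to 3 and 4.35, 4.50 and 4.50 FPKM in PF model samples 1 to 3. All PF model samples lay above all control samples, and control 2 came nearest to them. The mean was 2.72 ± 0.936 FPKM in control and 4.45 ± 0.0864 FPKM in PF model samples (SD, n = 3), a ratio of 1.64. The difference was 0.58 ± 0.19 (SE) on the log2(FPKM + 1) scale (limma, unadjusted p = 0.0204, adjusted p = 0.933).

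The Wnt3a value did not come from the annotated transcript. ENSRNOT00000064505, which has 4 exons, lay between 0 and 0.0472 FPKM in all 6 samples. An assembled transcript that shares splice sites with it, MSTRG.5385.1, held 58.9% of the sum, with 0.987, 2.62 and 0.791 FPKM in control and 2.88, 2.69 and 2.70 FPKM in PF model samples. MSTRG.5385.1 starts upstream, at 45643191 against 45638035 for the annotated transcript. Whether the promoter window shown above precedes this start was not tested. A single-exon transcript inside an intron and on the plus strand, opposite to Wnt3a, held 40.6%, with 1.37, 1.16 and 1.21 FPKM in control and 1.45, 1.76 and 1.79 FPKM in PF model samples. Both had every PF model sample above every control sample, and neither passed on its own (unadjusted p = 0.0599 and 0.138). From the annotated transcript alone, the difference of Wnt3a was 0.03 (unadjusted p = 0.336). The gene sum missed 0.05 without control 1 (0.52, unadjusted p = 0.0618), control 3 (0.44, unadjusted p = 0.0588) or PF model 2 (0.57, unadjusted p = 0.0516). Wnt3a lies on the minus strand of chromosome 10, from 45598912 to 45638035 in the coordinates of the table, whose build the sources used here do not name, and Wnt9a lies head to head with it on the plus strand, from 45659143.

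Wnt5b, the close relative of the β-catenin-independent ligand Wnt5a, measured 1.10, 1.32 and 1.38 FPKM in control samples and 1.78, 1.87 and 2.80 FPKM in PF model samples. The groups did not overlap, and PF model 3 stood above the other model samples. The mean was 1.27 ± 0.147 FPKM in control and 2.15 ± 0.567 FPKM in PF model samples (SD, n = 3), a ratio of 1.70. The difference was 0.46 ± 0.16 (SE; unadjusted p = 0.0237, adjusted p = 0.933). Its annotated transcript ENSRNOT00000089970, with 4 exons, carried nearly all of the value (difference 0.46, unadjusted p = 0.0437). PF model 3 also had the highest summed level of 6 of the 11 marker lists, by smaller margins for alveolar epithelium, B cells and macrophages than for the following 3. Cardiac muscle markers summed to 28.6 FPKM there against at most 6.25 in the other model samples and 10.7 in control samples, smooth muscle markers to 146 FPKM against at most 96.2 and 112, and fibroblast markers to 445 FPKM against at most 379 and 341. Their part in the Wnt5b values was not tested. Without PF model 3, the difference of Wnt5b was 0.32 (unadjusted p = 0.0446), and it missed 0.05 without control 1 (0.41, unadjusted p = 0.0736) or control 2 (0.48, unadjusted p = 0.0509).

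Wnt2, a ligand of the lung mesenchyme needed for lung development, measured 8.36, 7.90 and 7.46 FPKM in control samples and 5.79, 6.90 and 6.45 FPKM in PF model samples. All PF model samples lay below all control samples. The mean was 7.91 ± 0.454 FPKM in control and 6.38 ± 0.554 FPKM in PF model samples (SD, n = 3), 0.807 of the control mean. The difference was -0.27 ± 0.10 (SE; unadjusted p = 0.0349, adjusted p = 0.933). A single-exon transcript beyond the end of the gene, MSTRG.25351.1, held 34.4% of the Wnt2 value. It lies from 45288542 to 45291742 with no strand assigned, and the annotated transcript on the minus strand ends at 45292437. The groups of MSTRG.25351.1 did not overlap, with 2.77, 2.56 and 3.26 FPKM in control and 1.97, 2.10 and 2.07 FPKM in PF model samples (difference -0.34, unadjusted p = 0.0390). The annotated transcript alone gave overlapping groups, 5.59, 5.33 and 4.19 FPKM against 3.82, 4.79 and 4.38 FPKM, and Wnt2 then had a difference of -0.18 (unadjusted p = 0.263). Wnt2 also passed 0.05 no longer after scaling to TPM (unadjusted p = 0.139) or to the upper quartile (0.0581), nor without control 1, control 2, PF model 1 or PF model 3 (unadjusted p = 0.109, 0.0814, 0.113 and 0.0587).

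Wnt11, a ligand known for cell movements that do not use β-catenin, measured 2.30, 1.95 and 2.12 FPKM in control and 2.94, 2.80 and 2.42 FPKM in PF model samples. The groups did not overlap, with a difference of 0.25 ± 0.12 (SE; unadjusted p = 0.0814, adjusted p = 0.933). Its annotated transcript ENSRNOT00000021674 held 20.5% of the value, at 0.291, 0.264 and 0.112 FPKM in control and 0.403, 1.26 and 0.660 FPKM in PF model samples. The assembled transcript MSTRG.2413.1 held the rest, and its groups overlapped. Wnt4, which acts in kidney and gonad development, lay between 5.85 and 7.83 FPKM, and its shorter annotated transcript ENSRNOT00000018064 was higher in every PF model sample (1.17 to 1.35 FPKM against 1.58 to 2.30 FPKM, unadjusted p = 0.102).

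**Figure D3:**
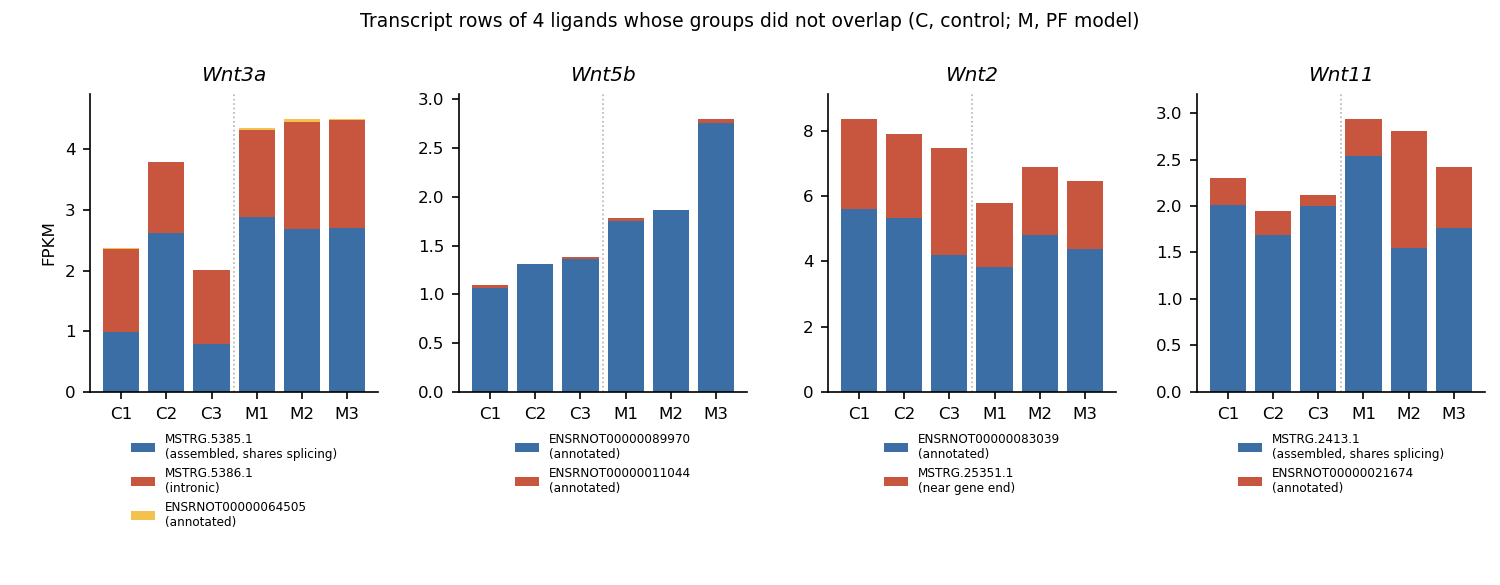
FPKM of each transcript listed under Wnt3a, Wnt5b, Wnt2 and Wnt11, stacked to the gene sum, in control (C1 to C3) and PF model (M1 to M3) libraries. The annotated transcript makes up nearly all of Wnt5b and hardly any of Wnt3a, where MSTRG.5385.1 ranges from 0.791 FPKM in C3 to 2.88 FPKM in M1.

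Among the 10 Frizzled receptors, which bind the ligands at the cell surface, Fzd4 had the highest level. It measured 24.1, 24.1 and 23.5 FPKM in control samples and 20.5, 21.1 and 25.8 FPKM in PF model samples, and the groups overlapped, with PF model 3 above and the other model samples below the controls (difference -0.10 ± 0.10, SE, unadjusted p = 0.378). Fzd2 followed with 17.7, 18.8 and 18.4 FPKM in control and 18.9, 22.0 and 19.3 FPKM in PF model samples. These groups did not overlap, but control 2 and PF model 1 nearly touched, and the difference of 0.12 ± 0.08 (SE) did not pass (unadjusted p = 0.196). Fzd1 lay in a narrow range, between 11.6 and 12.3 FPKM. Fzd7 (mean 9.56 FPKM), Fzd8 (7.34), Fzd6 (6.30), Fzd5 (6.28) and Fzd3 (4.83) came next and each overlapped the following one, and Fzd9 and Fzd10 stayed at 0.122 FPKM or below.

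Fzd8 was low in 1 library. It measured 7.77, 7.24 and 8.93 FPKM in control samples and 6.71, 2.99 and 10.4 FPKM in PF model samples. LOC100909849, chosen after its values were seen, is another name on chromosome 17 whose annotated transcript has 1 exon of 2985 bases, as that of Fzd8 has, and it measured 5.36, 7.11 and 5.81 FPKM in control and 6.87, 9.44 and 7.49 FPKM in PF model samples. PF model 2 was thus the lowest for Fzd8 and the highest for LOC100909849. The sum of both lay between 13.1 and 14.7 FPKM in control and between 12.4 and 17.9 FPKM in PF model samples. The sequences of the 2 genes were not compared and the sharing of reads between them was not tested, so the value of Fzd8 alone is given as uncertain.

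The co-receptors Lrp6 and Lrp5, single-pass receptors that are phosphorylated when a ligand binds, had the highest means of the cell-surface genes among the 46. Lrp5 (mean 24.0 FPKM) overlapped Fzd4 (23.2 FPKM) over the 6 samples, and 8.83% of the Lrp5 sum was an intronic transcript. Lrp6 measured 45.6, 46.0 and 48.7 FPKM in control and 47.0, 44.1 and 50.7 FPKM in PF model samples, and the groups overlapped (difference 0.01 ± 0.08, SE, 95% interval -0.17 to 0.20, unadjusted p = 0.871). Lrp5 measured 24.7, 24.6 and 20.6 FPKM in control and 25.7, 22.1 and 26.6 FPKM in PF model samples (difference 0.09 ± 0.11, SE, 95% interval -0.18 to 0.35, unadjusted p = 0.453). The 2 co-receptors did not overlap in level in any library.

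The Lrp6 sum was made of 7 transcripts. The annotated ENSRNOT00000082102, with 23 exons, was the largest, with 14.4, 20.4 and 16.2 FPKM in control and 15.5, 14.4 and 23.6 FPKM in PF model samples. The second annotated transcript, ENSRNOT00000066575, was lowest in the 2 libraries in which the first was highest, at 1.68 FPKM in control 2 and 1.59 FPKM in PF model 3 against 4.41 to 4.99 FPKM elsewhere. A spliced transcript on the opposite strand, MSTRG.26948.1, held 26.7% of the sum, between 11.4 and 13.3 FPKM, and a plus-strand transcript inside an intron, MSTRG.26950.1, held 2.76 to 3.54 FPKM. The remaining 3, MSTRG.26949.3, MSTRG.26949.4 and MSTRG.26949.5, lay between 2.73 and 4.24 FPKM. The smallest unadjusted p of the 7 was 0.575. MSTRG.26948.1 runs from 168191601 to 168194929 and the annotated Lrp6 begins at 168194927, so the 2 share only a few bases at their ends. The library kit keeps strand, but the sources used here do not say whether the quantification used it. Without it, reads of MSTRG.26950.1 could not be told apart from unspliced reads of Lrp6.

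Lrp5 rested on an assembled transcript with 23 exons, MSTRG.3424.1, that held 19.9, 22.2 and 13.3 FPKM in control and 23.8, 19.9 and 18.8 FPKM in PF model samples. The annotated transcript ENSRNOT00000022213, also with 23 exons, was listed at 2.82, 0 and 5.09 FPKM in control and at 0, 0 and 5.74 FPKM in PF model samples. Where the annotated transcript was high, the assembled one was low, in both groups. An intronic transcript on the opposite strand, MSTRG.3425.1, was steady between 1.96 and 2.34 FPKM. None of the 3 passed, with unadjusted p-values of 0.402, 0.579 and 0.667.

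Among the R-spondins and their Lgr receptors, Lgr4 had the highest level, with 3.60, 3.73 and 4.75 FPKM in control and 3.72, 4.11 and 4.28 FPKM in PF model samples (difference 0.01 ± 0.13, SE, unadjusted p = 0.949). Lgr6 averaged 2.54 FPKM, with 53.8% of it in a single-exon transcript near the gene end. Lgr5, a marker of stem cells in several epithelia, stayed between 0.286 and 0.623 FPKM. Rspo1 lay between 1.87 and 3.00 FPKM. Rspo3 was listed at 0.0135, 0 and 0.0266 FPKM in control samples and at 0 in all PF model samples, and was not tested.

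Rspo2, an R-spondin of the lung mesenchyme, measured 2.27, 1.25 and 1.41 FPKM in control and 1.28, 0.439 and 0.923 FPKM in PF model samples. The groups overlapped by 1 sample on each side, and the PF model mean was 0.536 of the control mean, with a difference of -0.50 ± 0.22 (SE; unadjusted p = 0.0610, adjusted p = 0.933). It was the lowest ratio of group means among the genes with a mean of at least 0.1 FPKM. An intronic transcript of 226 bases and 1 exon, MSTRG.32907.1, held 86.1% of the value, and each of the 3 annotated transcripts stayed at 0.236 FPKM or below. The whole gene rested on a median of about 31.1 reads per library, as estimated from coverage, transcript length and read length.

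Among the 8 secreted antagonists, Wif1, which binds Wnt ligands directly, had the highest level. It measured 30.2, 24.8 and 20.5 FPKM in control and 34.8, 24.9 and 30.2 FPKM in PF model samples, and the groups overlapped (difference 0.25 ± 0.17, SE, unadjusted p = 0.200). Dkk3 followed at a mean of 4.37 FPKM, then Sfrp2 (2.87), Dkk4 (2.64) and Sfrp1 (1.02), while Sfrp5, Sfrp4 and Dkk2 averaged 0.588, 0.449 and 0.319 FPKM. Dkk4, a blocker of Lrp5 and Lrp6, lay between 2.26 and 2.88 FPKM, but 97.5% of this was 1 single-exon transcript that covers both exon and intron, and the annotated transcript stayed at 0.141 FPKM or below.

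Dkk3, a divergent Dkk family member, stood out in 1 library of each group. It measured 2.03, 9.87 and 1.57 FPKM in control and 2.06, 8.65 and 2.06 FPKM in PF model samples, and control 2 and PF model 2 stood above the rest. In control 2 the value came from the assembled transcript MSTRG.2679.3 (9.74 FPKM) and in PF model 2 from MSTRG.2679.2 (8.16 FPKM), and both were listed at 0 in every other library. Both have 8 exons, like the annotated ENSRNOT00000022301, but are shorter, at 3271 and 3309 bases against 5010. The annotated transcript was at its lowest in the same 2 libraries, 0.129 and 0.486 FPKM. Of the 4 mesothelial markers, 3 were also highest in these 2 libraries, a comparison chosen after the values were seen. Upk3b measured 4.51 FPKM in control 2 and 4.93 in PF model 2 against 1.05 to 1.95 FPKM elsewhere, Lrrn4 2.24 and 2.46 against 0.812 to 2.12, and Wt1 0.155 and 0.136 against 0.0703 at most. The fourth, Msln, was highest in PF model 3 at 7.11 FPKM. Their part in the Dkk3 values was not tested.

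Inside the cell, Ctnnb1, which encodes β-catenin, was the most abundant of the 46 genes. It measured 104, 102 and 103 FPKM in control and 117, 110 and 125 FPKM in PF model samples. The groups did not overlap, and the SD was 1.11 FPKM in control and 7.62 FPKM in PF model samples. The PF model mean was 1.14 times the control mean, with a difference of 0.18 ± 0.08 (SE; unadjusted p = 0.0567, adjusted p = 0.933). β-catenin is controlled mainly by protein stability, which these data do not measure.

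The groups overlapped for the DNA-binding partners of β-catenin and for its target gene. Axin2, a scaffold protein that feeds back on the pathway, measured 18.6, 14.4 and 15.8 FPKM in control and 17.2, 15.3 and 15.1 FPKM in PF model samples, and all 3 model values lay within the control range (difference -0.03 ± 0.11, SE, 95% interval -0.30 to 0.24, unadjusted p = 0.813). Tcf7 lay between 9.40 and 13.4 FPKM and Lef1 between 6.47 and 11.3 FPKM, with overlapping groups. Among the transcripts listed under Lef1, MSTRG.20830.2 is an assembled 2-exon transcript of 838 bases that overlaps exons of the annotated transcript. It begins upstream of the gene, at 236195082 against 236233239 for the annotated transcript. It measured 1.33, 0.587 and 0.349 FPKM in control and 2.36, 1.84 and 1.95 FPKM in PF model samples. These groups did not overlap, and its difference was 0.83 ± 0.24 (SE; unadjusted p = 0.0147, adjusted p = 0.945). Another assembled 2-exon transcript of Lef1 with the same start, MSTRG.20830.1, measured 0, 3.00 and 2.37 FPKM in control samples. It was listed at 0 in all PF model samples. MSTRG.20830.2 was thus lowest in the libraries that held MSTRG.20830.1, and whether reads moved between them was not tested. The annotated Lef1 transcript ENSRNOT00000013694, with 12 exons, lay between 2.73 and 4.53 FPKM with overlapping groups (unadjusted p = 0.412).

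The 46 genes held 95 transcripts, of which 86 were tested beside 64867 in all. MSTRG.20830.2 of Lef1 and ENSRNOT00000021674 of Wnt11 were called, both higher in PF model samples, which is 2.33% of the 86 against 2.98% of all transcripts tested (1.22% higher). The Wnt11 transcript had a mean of 0.497 FPKM and is named because it is 1 of only 2 calls. At an unadjusted p of at most 0.05 there were 4 transcripts, 4.65% against 4.53% of all. None had an adjusted p below 0.05, the lowest being 0.945, against 0.0277% of all transcripts. The groups did not overlap in 10 of the 86 member transcripts, against 10.4% of all transcripts tested.

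Much of the FPKM under these gene names was not annotated. Of the 95 transcripts, 52 were annotated and 23 were assembled with shared splicing or exons. The rest were 9 single-exon transcripts near a gene end, 3 single-exon transcripts that cover exon and intron, 7 inside introns and 1 that overlaps an exon on the opposite strand. In 17 genes these latter kinds entered the sum, and in Dkk4, Wnt2b (97.1%), Rspo2 and Lgr6 they made up over 50% of it. The intronic transcripts of Wnt3a, Lrp6, Lrp5 and Tcf7 also lay on the strand opposite to the gene. As the plot of the composition of the sums shows, assembled transcripts that share splicing or exons with the annotated gene carried over 50% of the value of Fzd6 (94.0%), Lrp5 (81.7%), Wnt11 (79.5%), Tcf7 (78.3%), Rspo1 (70.3%), Dkk3 (68.2%), Wnt3a (58.9%) and Wnt5a (58.3%).

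**Figure D4:**
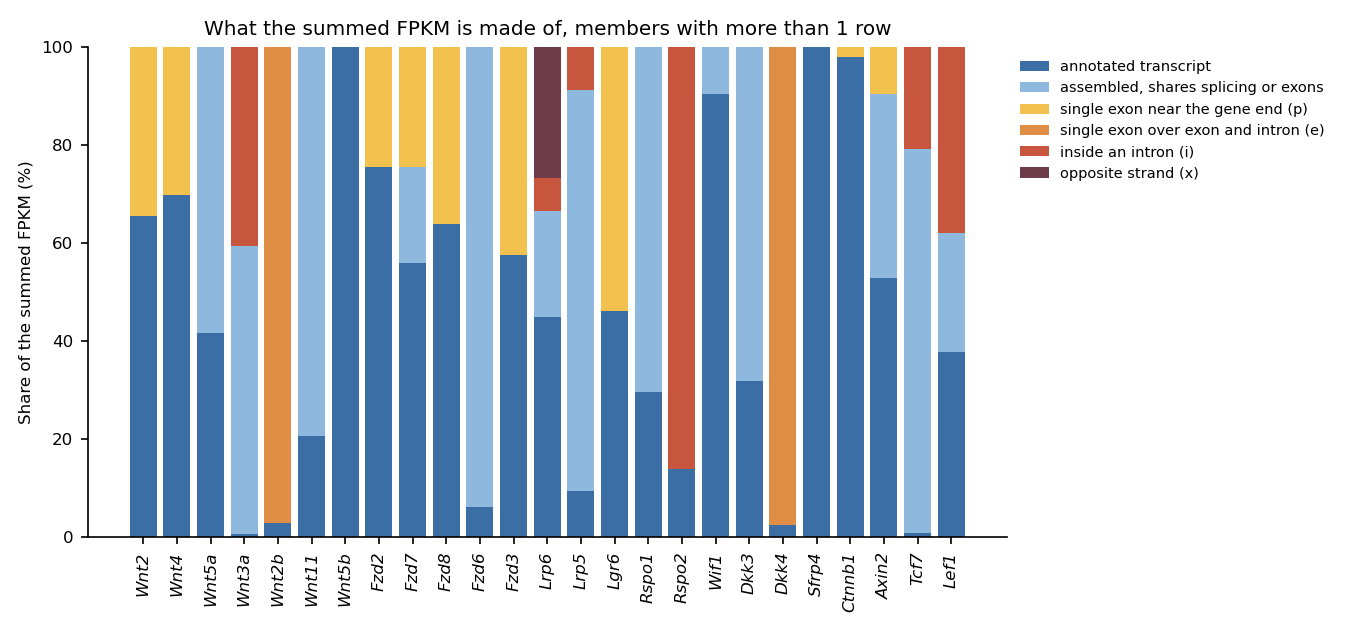
Share of the FPKM summed over the 6 samples, in percent, that each kind of transcript holds in the 25 genes with more than 1 transcript listed. Dkk4 and Wnt2b are almost entirely single-exon transcripts over exon and intron (97.5% and 97.1%), and 26.7% of Lrp6 is a spliced transcript on the opposite strand. Intronic transcripts are drawn as their own kind on either strand.

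Several genes kept a steady sum while its transcripts traded places between libraries. Rspo1 was assigned to the assembled MSTRG.28926.2 in 4 libraries (2.32 to 3.00 FPKM) and to the annotated ENSRNOT00000012811 in control 3 (1.87 FPKM) and PF model 3 (2.44 FPKM), with the other at 0 each time. The 2 transcripts have 6 exons each and differ in length by 1705 against 1693 bases. In Fzd7, control 1 was assigned to MSTRG.37089.1 (7.13 FPKM) and all other libraries to the annotated ENSRNOT00000021569 (5.59 to 7.40 FPKM), while the gene sum stayed between 9.01 and 11.3 FPKM. Wnt5a was split between the annotated ENSRNOT00000021164 (0.503 to 5.90 FPKM) and 2 assembled transcripts, with a sum between 5.03 and 7.53 FPKM. In 7 of the 12 genes with at least 2 annotated or spliced transcripts of a mean of at least 0.5 FPKM, the sum varied less over the 6 libraries than any of its transcripts (58.3%, against 72.3% of 7516 gene names). The median coefficient of variation in these 12 genes was 14.8% for the sum and 78.6% for the least steady transcript. Over the 7516 gene names it was 13.2% and 70.2%.

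**Figure D5:**
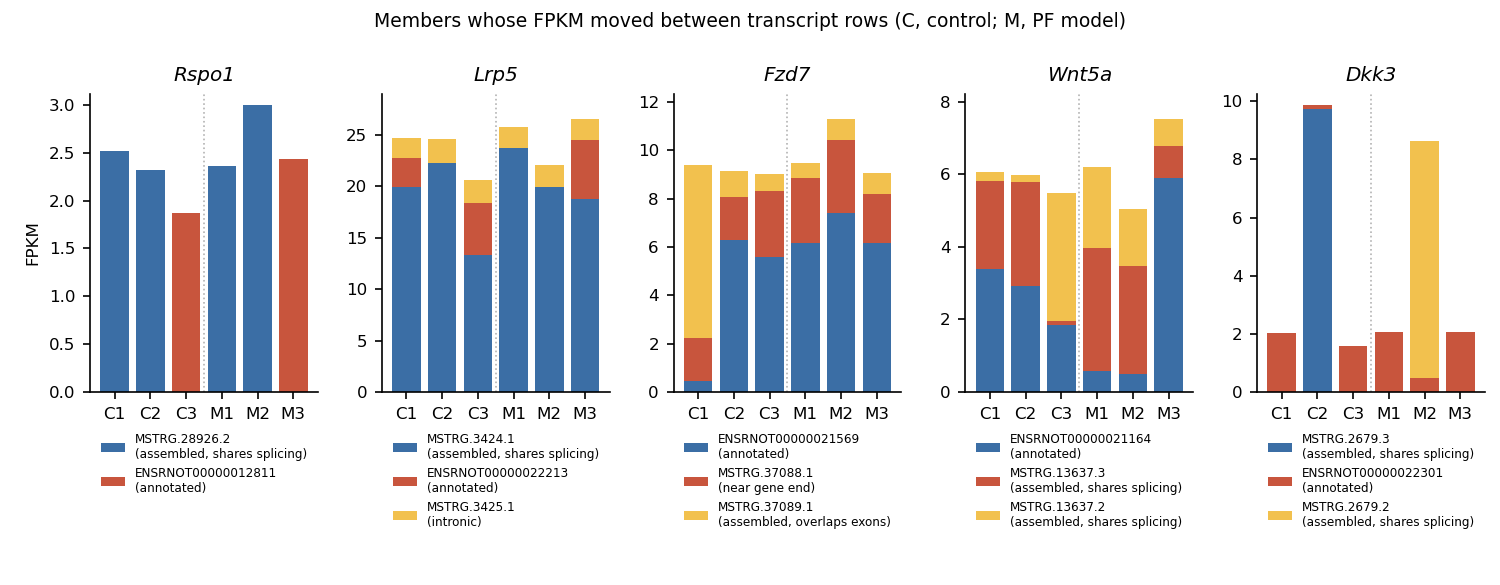
FPKM of each transcript listed under Rspo1, Lrp5, Fzd7, Wnt5a and Dkk3, stacked to the gene sum, in control (C1 to C3) and PF model (M1 to M3) libraries. Rspo1 switches from 1 transcript to the other in C3 and M3 at a similar sum, whereas in Dkk3 the sum itself reaches 9.87 FPKM in C2 and 8.65 FPKM in M2.

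Lrp6 was also the main host of circular RNAs (circRNAs), which form when a downstream splice site joins an upstream one. Of 5216 circRNAs, 11 came from 5 of the 46 genes, and 6 of them from Lrp6, with 50 of the 59 back-splice reads. The reads from Lrp6 numbered 5, 7 and 7 in control and 8, 8 and 15 in PF model samples, of 2037 to 2964 back-splice reads per library. As a share this was 0.193%, 0.321% and 0.262% in control and 0.325%, 0.393% and 0.506% in PF model samples. The exact Clopper-Pearson 95% intervals, which cover counting error only, overlapped between the groups (0.129% to 0.660% in control 2 and 0.284% to 0.833% in PF model 3), and with so few reads no test was made. The most frequent, circRNA1788, joins 2 exons on chromosome 4 from 168219620 to 168221653 and had 0, 7 and 3 reads in control and 6, 3 and 9 reads in PF model samples. Its 0 in control 1 allows a share of up to 0.116%. The other hosts, Lgr6, Lrp5, Dkk3 and Ctnnb1, had 9 reads in all, over 5 circRNAs.

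Other genes of the pathway, from a list of 57 names of which 54 were found, were counted in the same fit. Of the 53 tested, none was called, 4 passed an unadjusted p of 0.05 (7.55%, against 4.91% of all gene names) and none had an adjusted p below 0.05. Ror1, a receptor for Wnt5a, measured 5.33, 5.44 and 5.78 FPKM in control and 4.25, 4.22 and 4.05 FPKM in PF model samples (difference -0.33 ± 0.10, SE, unadjusted p = 0.0137, adjusted p = 0.933). Prickle2, of the planar polarity branch, measured 29.1, 31.4 and 33.1 FPKM in control and 25.6, 19.4 and 27.7 FPKM in PF model samples (difference -0.36 ± 0.14, SE, unadjusted p = 0.0359). Cd44, a cell adhesion receptor and known target gene, measured 26.1, 25.8 and 25.6 FPKM in control and 32.5, 28.8 and 28.3 FPKM in PF model samples (difference 0.20 ± 0.08, SE, unadjusted p = 0.0382). Apc2, a relative of the β-catenin destruction scaffold Apc, measured 1.54, 0.858 and 1.43 FPKM in control and 1.72, 2.19 and 1.96 FPKM in PF model samples (difference 0.39 ± 0.16, SE, unadjusted p = 0.0459). In all 4 the groups did not overlap, as in 8 of the 53 (15.1%, against 10.7% of all gene names tested).

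The libraries held an estimated 35778600 to 41112700 reads over all transcripts, and the reads of the 46 genes numbered about 61570 to 68321 in control and 61383 to 71714 in PF model samples. Alveolar epithelial markers were abundant in every library, with a summed level between 4747 and 7149 FPKM. Of 57 markers of 11 cell types and states, 51 were found, and 2 of the 50 tested passed an unadjusted p of 0.05. Col3a1, a fibrillar collagen, measured 174, 178 and 154 FPKM in control and 189, 204 and 233 FPKM in PF model samples (unadjusted p = 0.0366). The other was Nppa, a cardiac gene, at 0.107, 0 and 0 FPKM in control and 0.150 to 0.167 FPKM in PF model samples. None of the 6 fibrosis markers passed, and their summed level overlapped between the groups, at 138 to 188 FPKM in control and 163 to 192 FPKM in PF model samples.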

How the data were processed

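Lung RNA of 3 control and 3 PF model samples was depleted of ribosomal RNA with Ribo-Zero from 10 ug of total RNA and made into TruSeq stranded libraries, which were sequenced as paired reads of 150 bases. Reads were trimmed with Cutadapt and mapped with Bowtie2 and Tophat2 by the authors, and the submitters' processing notes name HISAT2, StringTie and TopHat. The genome build is not given in the sources used here. The authors deposited FPKM, estimated per assembled transcript with StringTie and Ballgown, and the coverage per base of each transcript, a signal that is not scaled to the library. For circRNAs, the authors used Tophat-fusion and CIRCexplorer and deposited counts of reads over back-splice junctions, and the normalized values beside them were not used.

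FPKM were summed over all transcripts of a gene name, including assembled transcripts inside introns, near gene ends and on the opposite strand that carry its name. Names of the table (59882 of 70376 transcripts) were used as given. All 24 measurement columns were mapped to a sample by their names. Gene names or transcripts with an FPKM above 0 in at least 3 of 6 samples were tested with limma 3.58.1 (trend, R 4.3.3) on log2(FPKM + 1), two-sided, with Benjamini-Hochberg adjustment over all features tested, so a difference understates the change of genes with low FPKM. Features were called at an unadjusted p up to 0.05 with a ratio of group means of 2-fold or more. Reads were estimated as coverage times length divided by 150. FPKM tests weigh no read depth, so genes with few reads are less certain.

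The members and lists were chosen with earlier results of these data known. Every member was described by its level. Statistics were given for members with an unadjusted p of at most 0.05, with groups that did not overlap, or with a 2-fold ratio and a mean of at least 0.1 FPKM, and for the highest member of each role. Transcripts with an unadjusted p of at most 0.05 and a mean of at least 0.5 FPKM, all transcripts of Lrp5 and Lrp6, and pathway genes with an unadjusted p of at most 0.05 were named too. Other values were chosen after they were seen. Alternatives were other pseudocounts, filters, sums, scalings, transcript classes, limma without trend, leaving out single samples and a replicate block.

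In simulated data for this comparison with 19614 gene names, changes were given on the log2(FPKM + 1) scale to genes with a mean of at least 1 FPKM. There limma called 74% of 100 genes changed by 1 log2 unit and 98.0% of 99 genes changed by 2, and 1.78% of unchanged genes. The rates for changed genes do not cover genes with a mean below 1 FPKM. Further software was matplotlib 3.10.9, scipy 1.17.1, numpy 2.4.6 and pandas 2.3.3 under Python 3.11.15.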

Additional observations from a re-analysis of the deposited data

How the results depend on the processing

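Of the 42 tested genes, 0 were called in the reported comparison. With annotated transcripts only, 1 of 41 was called (Wnt11), against 519 of all 18967 gene names tested. Leaving out each sample in turn gave 0 to 1 calls. These were Wnt3a without control 2, against 328 of 19369 gene names, and Rspo2 without PF model 1, against 355 of 19346. The genes with an unadjusted p of at most 0.05, 3 as reported, numbered 0 to 3 when each sample was left out, with 0 without control 1 and 1 without control 2, and from 2 to 4 under the other alternatives. Called transcripts, 2 as reported, were 1 with a mean of at least 1 FPKM and 1 to 3 when each sample was left out, with 1 without control 1. Of the other pathway genes, 0 were called as reported and 0 to 1 when each sample was left out. The 1 call was without PF model 3, of 52 tested, against 309 of 19342 gene names. Those with an unadjusted p of at most 0.05, 4 as reported, were 2 with a replicate block and 1 to 4 when each sample was left out, with 1 without control 3 or without PF model 2 and 2 without PF model 1. Wnt3a, Wnt5b and Wnt2 kept their direction in all 17 alternatives, with differences of 0.03 to 0.78, 0.32 to 0.70 and -0.32 to -0.18 on the scale of each alternative and unadjusted p up to 0.336, 0.0736 and 0.263. Lgr4 (0.01 as reported) lay between -0.052 and 0.11 when each sample was left out, below 0 without control 1, control 2, PF model 2 or PF model 3, and Lrp6 (0.01) between -0.037 and 0.061, below 0 without control 1 or PF model 3. Rescaling FPKM to TPM moved the median difference of all gene names from -0.01 to 0.05. The replicate numbers did not pair the samples: the correlations of deviations of samples with the same number were 0.0647, 0.0276 and -0.0784. With a replicate block, 0 of the 42 genes were called and 3 had an unadjusted p of at most 0.05, with Rspo2 in place of Wnt2, 881 of all gene names did (965 without it), and none had an adjusted p below 0.05 (2 without it). A planned sum over names merged with a neighbour was not run, since no such name held a member. Adding only annotated and spliced transcripts was chosen after the data were seen, and there Wnt2 had a difference of -0.18 and missed 0.05. Genes under about 20 estimated reads per library, 9 of the 46, are limited by depth.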
